A study of Mus musculus with 4 samples.

Results

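Acyl-CoA thioesterases of the Acot family were followed in livers of fasted mice that lack Cpt1a in the liver. The members were the 10 genes whose symbol in the deposited tables is Acot1, Acot2, Acot3, Acot4, Acot5, Acot6, Acot7, Acot8, Acot12 or Acot13, of 54532 genes listed. All 10 were found once each in the count and FPKM tables. The Cpt1a knockout livers form the only group of the series, with 4 libraries from mice fasted for 24 h and a liver-specific knockout of Cpt1a, which attaches long-chain fatty acids to carnitine so that they can enter mitochondria. A group labelled as lacking Cpt2, the inner-membrane partner enzyme, and called the Cpt2 group here, and a reference group enter only through 3 comparison tables of the authors. Per the design text, the mice of all groups were fasted for 24 h and the controls were littermates. Both the Cpt1a knockout and the Cpt2 group have short names with AlbCre, the usual name of a Cre recombinase driven by the albumin promoter, which is active in hepatocytes, so the other cells of the liver would keep the gene. The reference group carries a short name made of Rab30 and Cpt2, whose meaning is not spelled out. Nor do the labels say whether this group is the littermate controls of both the Cpt1a knockout and the Cpt2 group. Strain, sex and age were not stated, and nothing in the labels ties the 4 libraries to separate mice, so they may be technical replicates.

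Acyl-CoA thioesterases split an acyl-CoA into a free fatty acid and coenzyme A, the reverse of the activation step that acyl-CoA synthetases carry out. They work in the cytosol, in mitochondria and in peroxisomes, where they set how much acyl-CoA and how much free coenzyme A is present. The type I members, Acot1 to Acot6, are close copies in a gene cluster that arose by duplication, while the type II members, Acot7, Acot8, Acot12 and Acot13, share their activity but not their sequence. In mouse liver several type I genes are well known to be induced by fasting and by ligands of the nuclear receptor PPARA.

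The libraries held 13138884 to 14116441 counts with 19732 to 20258 genes detected. Cpt1a, the targeted gene, was at 24.4, 28.6, 31.1 and 36.9 FPKM in the Cpt1a knockout livers, and the authors' deposited table gave it a log2 fold change of −2.79 against the reference group (adjusted p = 5.27e-51). For Cpt2, the value for the Cpt2 group over the reference group was −0.07 in the authors' deposited table (adjusted p = 0.837), so this transcript was not called lower there, and a count over a whole gene need not show a deletion of a part of it. All 6 hepatocyte markers were detected in every liver, with a summed level of 18590 to 27054 FPKM, while the 4 kidney proximal tubule markers summed to 0 to 0.048 FPKM. Kupffer cell markers (6 of 6 detected) summed to 142 to 170 FPKM and red blood cell markers (3 of 3) to 147 to 409 FPKM.

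The type I genes lay side by side on chromosome 12 (GRCm38) on the plus strand. In genomic order they were Acot2 (83987861 to 83993873), Acot1 (84009490 to 84018371), Acot4 (84038379 to 84048601), Acot3 (84052144 to 84060402), Acot5 (84069325 to 84076020) and Acot6 (84100654 to 84111349), a span of 123 kb. The type II genes were scattered, with Acot7 on chromosome 4 (152178134 to 152271855, plus strand), Acot8 on chromosome 2 (164792765 to 164804882, minus strand), Acot12 on chromosome 13 (91741512 to 91786148, plus strand) and Acot13 also on chromosome 13 (24817948 to 24831540, minus strand). Between pairs of type I members, 73.8 to 95.6% of the aligned coding bases were identical, against 52.3 to 64.0% between Acot1 and each type II member. Acot1, the cytosolic long-chain enzyme, and Acot2, its mitochondrial copy, were the closest pair, with 55 of 1236 aligned coding bases different. Their longest identical run was 273 bases, from coding base 887 to 1159 in Acot1. Among aligned stretches of 90 coding bases without gaps, none differed at more positions than the 90 bases just before that run, with 14. They are shown because reads from such stretches can tell the genes apart. Capitals mark the differing bases, and positions are counted from the start codon:
Acot1 coding bases 797 to 886: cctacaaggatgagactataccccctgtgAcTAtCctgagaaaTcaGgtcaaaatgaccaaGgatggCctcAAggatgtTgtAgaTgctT
Acot2 coding bases 920 to 1009: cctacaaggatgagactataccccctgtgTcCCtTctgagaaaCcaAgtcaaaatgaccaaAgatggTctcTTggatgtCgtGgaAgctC

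Read sharing between the copies was weighed on the GENCODE M21 transcripts. Each window of 150 bases of a member's transcripts was looked for, exactly and on both strands, in the transcripts of every other gene. Of Acot2's windows 10.2% were found in another gene, all of them in Acot1. The share was 12.8% for Acot3, 7.25% for Acot4, 6.92% for Acot1, 3.04% for Acot5 and 0.16% for Acot6. Acot7, Acot12 and Acot13 had no such window, and Acot8 had 4.63%, all in Snx21, a sorting nexin gene whose exons overlap it on the opposite strand. Most of the genes' length was thus distinct, but the levels are unequal. Acot1 had 10.2 times the counts of Acot2, at a mean of 10597 against 1044. If coverage were even, 582 of Acot1's reads (5.50% of its windows over all annotated transcripts) to 1043 (9.84% over its principal transcript) would lie in stretches shared with Acot2. For windows of 150 bases, that is from 55.8% of Acot2's own count to a number as large as the count itself. It would be reached only if every shared read had been given to Acot2. Shorter windows share more, so larger numbers are possible. Over all annotated transcripts, 9.32% of Acot1's windows were found in Acot2 at 100 bases and 13.6% at 50 bases. Neither the read length nor the handling of reads that match more than 1 place was given in the sources used here, so Acot2's level is uncertain in a way that Acot1's is not. Acot4's shared windows were all in 4732463B04Rik, a gene on the opposite strand whose exons cover 9.21% of Acot4's and 9.08% of Acot3's exonic bases. It held 4.74% of Acot3's windows. It had 162 to 405 counts in the 4 livers, and without stranded counting its reads cannot be told apart from theirs. Acot3's main partner, with 8.09% of its windows, was Gm49366, which overlaps Acot3 and Acot4 on the same strand and had 0 counts in all 4 livers.

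Upstream of the genes the copies were far less alike. RefSeq promoter windows of GRCm38.p6, 250 bases before to 50 after each start, were at hand for 8 of the 10 members, with none for Acot6 and Acot13. Across the 10 pairs within the cluster, 45.8 to 58.0% of aligned bases were identical (median 52.3%), against 42.3 to 56.3% (median 49.8%) across the other 18 pairs of members. Acot1 and Acot2, the closest pair by coding sequence, had the lowest promoter identity of the cluster pairs at 45.8%. A search was made on both strands for the arrangement that PPAR and its partner RXR bind, a pair of AGGTCA hexamers with 1 base between them. No member held it with all 12 letters matched, and 0.040% of 32851 promoter windows did. Acot12 held the arrangement with 1 letter different, as did 0.554% of promoter windows, and Acot4 with 2 different, as did 3.86% with 2 or fewer. Acot2, Acot3 and Acot5 came no closer than 3 letters, which 24.6% of windows reach, Acot1 and Acot7 no closer than 4, and Acot8 no closer than 5. A match is a description of letters and not a site of binding. The 150 bases before the start are shown for the pair of copies closest by coding sequence and for the members with the closest matches, with the matched stretch in capitals:
Acot1 chr12:84009352-84009501, plus strand: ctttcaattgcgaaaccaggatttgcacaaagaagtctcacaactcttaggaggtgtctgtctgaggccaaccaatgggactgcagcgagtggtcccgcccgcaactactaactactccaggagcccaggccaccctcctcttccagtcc
Acot2 chr12:83987711-83987860, plus strand: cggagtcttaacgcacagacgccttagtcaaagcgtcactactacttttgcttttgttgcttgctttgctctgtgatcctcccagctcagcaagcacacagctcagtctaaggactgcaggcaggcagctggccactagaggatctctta
Acot4 chr12:84038229-84038378, plus strand: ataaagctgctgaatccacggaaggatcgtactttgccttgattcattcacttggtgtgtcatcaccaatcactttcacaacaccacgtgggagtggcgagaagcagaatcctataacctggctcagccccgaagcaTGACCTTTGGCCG
Acot12 chr13:91741371-91741520, plus strand: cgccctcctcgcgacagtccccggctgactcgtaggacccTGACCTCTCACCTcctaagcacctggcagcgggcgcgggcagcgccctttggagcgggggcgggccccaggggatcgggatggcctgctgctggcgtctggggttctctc

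**Figure D1:**
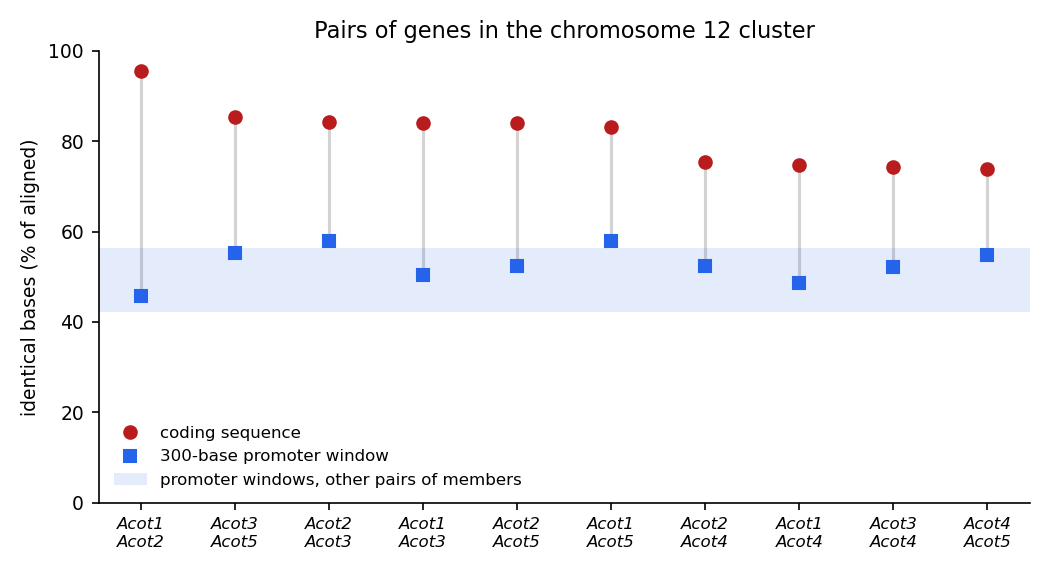
Identical bases as a percentage of aligned bases for the 10 pairs of cluster genes with a promoter window. Circles are coding sequences and squares are promoter windows. The band spans the promoter windows of the other 18 pairs of members. Coding identity reaches 95.6% for Acot1 and Acot2, whose promoter identity of 45.8% lies inside the band.

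In the Cpt1a knockout livers the family was led by the cytosolic enzymes. Acot1 was at 193, 119, 161 and 228 FPKM in livers 1 to 4, with a mean of 175 ± 46.6 (SD, n = 4), which placed it 240th of 22046 protein-coding genes. Livers 1 and 4 were high and liver 2 low, a spread of 1.92 times between the extremes. Acot12, which hydrolyses acetyl-CoA in the cytosol, came next at 112, 90.9, 77.9 and 91.2 FPKM (93.0 ± 14.2, SD, n = 4). Its highest liver was below the lowest for Acot1, so the ranges did not overlap. Acot7, best known as the long-chain acyl-CoA hydrolase of brain, was at 5.90, 5.85, 8.07 and 7.34 FPKM (6.79 ± 1.10, SD, n = 4).

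Of the mitochondrial members, Acot13 had a higher mean than any peroxisomal member, while Acot2 lay below the peroxisomal Acot4 and Acot3. Acot13, a medium and long-chain hydrolase associated with mitochondria, was at 56.7, 67.0, 75.1 and 72.9 FPKM (67.9 ± 8.25, SD, n = 4), with liver 1 the lowest. Acot2, which acts on long-chain acyl-CoA in the matrix, was at 41.8, 21.9, 26.3 and 33.5 FPKM (30.9 ± 8.75, SD, n = 4), with liver 1 the highest. Acot1 exceeded Acot2 in FPKM by 4.60, 5.42, 6.13 and 6.81 times in livers 1 to 4, so the copies did not keep a fixed ratio.

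Among the peroxisomal members, Acot4, which acts on dicarboxylyl-CoA such as succinyl-CoA, was at 68.3, 56.4, 37.8 and 53.4 FPKM (54.0 ± 12.6, SD, n = 4). Acot3, a long-chain peroxisomal hydrolase in mouse, was at 54.6, 36.8, 38.9 and 50.4 FPKM (45.2 ± 8.66, SD, n = 4). Their ranges overlapped, and Acot4 was the higher of the pair in 3 of 4 livers. Acot8, a peroxisomal enzyme with a broad range of substrates, was at 14.7, 14.9, 17.4 and 19.4 FPKM (16.6 ± 2.23, SD, n = 4). Acot5, a medium-chain peroxisomal hydrolase in mouse, had 19, 0, 8 and 3 counts, so it was near the floor of 3 counts in liver 4 and had none in liver 2. Acot6, which acts on branched-chain acyl-CoA, had 26, 11, 23 and 15 counts, or 0.270, 0.114, 0.226 and 0.149 FPKM. Acot5 was at 0.833, 0, 0.332 and 0.126 FPKM, so by FPKM each was the higher in 2 of 4 livers. In raw counts, which do not allow for the longer gene length of Acot6, Acot6 was the higher in every liver. At these counts a difference in FPKM between Acot5 and Acot6 was not detectable.

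With the length of the principal transcript in place of the authors' gene length, an alternative chosen after seeing the data, the mean of Acot1 was 302 FPKM and that of Acot8 28.8 FPKM, while Acot2 stayed at 30.9, so the ratio of Acot1 to Acot2 depends on the length used. The order by the authors' mean FPKM was Acot1, Acot12, Acot13, Acot4, Acot3, Acot2, Acot8, Acot7, Acot5 and Acot6. Neighbours whose ranges overlapped were Acot13 and Acot4, Acot4 and Acot3, Acot3 and Acot2, and Acot5 and Acot6. The median SD of the members on the log2(FPKM + 1) scale was 0.24, against 0.20 over 10859 genes with a mean FPKM of at least 1. Acot1 (0.40), Acot2 (0.40) and Acot4 (0.35) varied most, and Acot13 and Acot8 (0.18 each) varied least among the 8 members above 1 FPKM. For Acot1 the coefficient of variation was 26.6%, against 0.97% from counting error alone. Leaving out liver 2 lowered the SD of Acot1 to 0.25, leaving out liver 3 lowered that of Acot4 to 0.18, and leaving out liver 1 lowered that of Acot13 to 0.08. Together the 10 members reached 490 ± 73.1 FPKM (SD, n = 4), and type I genes made up 65.4, 56.7, 59.7 and 65.7% of it in livers 1 to 4. Members known as cytosolic made up 55.8 ± 2.71% of the summed FPKM, peroxisomal ones 23.8 ± 2.37% and mitochondrial ones 20.4 ± 2.23% (SD, n = 4 each).

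**Figure D2:**
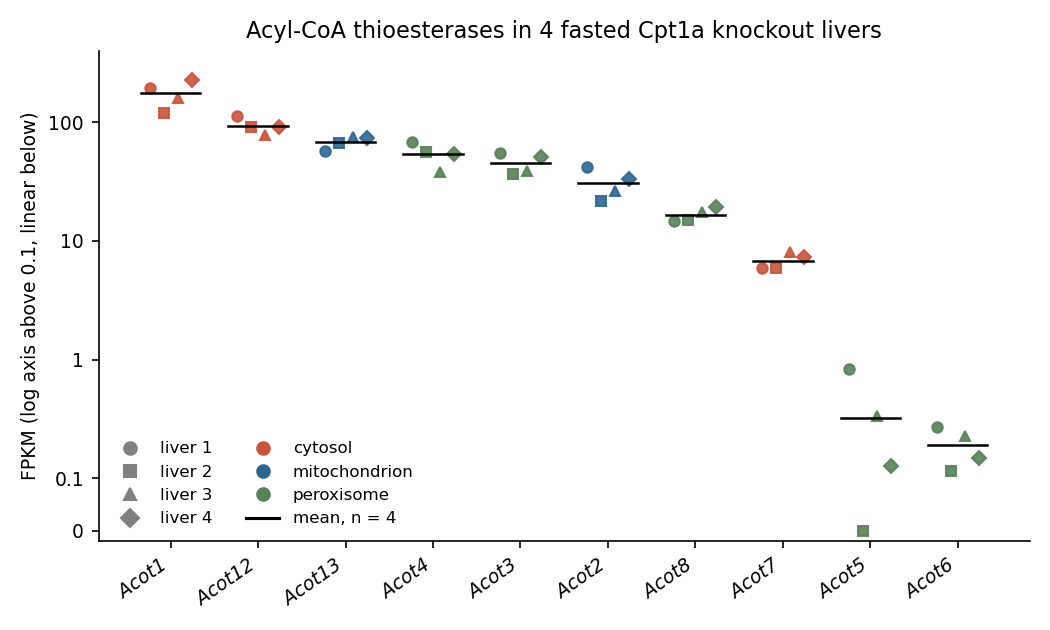
FPKM of the 10 members in the 4 Cpt1a knockout livers, on an axis that is logarithmic above 0.1 and linear below. Each symbol is a liver, colour gives the compartment the enzyme is known from, and the line is the mean. Acot1 leads at 175 FPKM, and Acot5 and Acot6 lie below 1 FPKM in every liver.

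Against the reference group, type I transcripts were higher in the Cpt1a knockout. The authors' deposited table called 7 of the 10 members higher and 1 lower, at an adjusted p below 0.05. Over all genes 14.4% of 16862 were called, 6.81% higher and 7.60% lower. Of the 6 type I genes 5 were called higher, and of the 4 type II genes 2 were called higher and 1 lower. The median log2 fold change of the 10 members was 1.11, against 0.00 over 13791 genes whose mean count reached 10, with summed values from the other tables where this one lists none. Because bulk livers were measured, fewer cells of a type and less RNA per cell cannot be told apart.

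Acot1 was 5.29-fold higher in the Cpt1a knockout in the authors' deposited table (log2 fold change 2.40, adjusted p = 9.07e-15). Acot2 was 5.96-fold higher in the authors' deposited table (2.58, adjusted p = 1.26e-10). Reads shared with Acot1 weigh on that value. Even coverage would put 582 to 1043 of Acot1's counts in the shared stretches in the Cpt1a knockout and, scaled down by the authors' fold change, 110.0 to 197 in the reference group. The gap between the groups in such reads, 472 to 846 counts, compares with a gap of 869 counts in Acot2 itself. Acot2's own implied count in the reference group is 175, below the upper limit of 197, so that limit cannot hold in full there. Much of the difference in Acot2 could still not be told apart from that in Acot1, and the part of shared reads in it was not tested. Acot3 was 6.61-fold higher in the authors' deposited table (2.72, adjusted p = 6.48e-04), the largest fold change among the members above 1 FPKM. Acot4 was 2.82-fold higher in the authors' deposited table (adjusted p = 9.69e-07). The opposite-strand gene 4732463B04Rik that overlaps both was also called higher in the authors' deposited table (2.03, adjusted p = 8.38e-08). Acot5 was called higher as well (adjusted p = 0.0271 in the authors' deposited table). Its mean of 7.5 counts in the Cpt1a knockout, divided by the authors' fold change, would leave 0.329 counts in the reference group, below the floor of 3, so the size of that change is not given.

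The type II members called had smaller fold changes than Acot1 to Acot4. Acot13 was 1.65-fold higher in the authors' deposited table (log2 fold change 0.72, adjusted p = 0.0241). Acot8 was 1.51-fold higher in the authors' deposited table (0.60, adjusted p = 0.0262). Acot7 was the member called lower, 1.66-fold in the authors' deposited table (−0.73, adjusted p = 0.00428). Acot6 and Acot12 were not among the genes that the authors' deposited table of this comparison lists, which all have an unadjusted p of at most 0.05. The sum of their log2 fold changes in the authors' deposited tables of the other comparisons was 0.08 for Acot6 and 0.27 for Acot12. At a stricter adjusted p below 0.01, 5 members were called, and Acot5, Acot8 and Acot13 were not among them.

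In the Cpt2 group the same comparison with the reference group called 6 members higher and none lower in the authors' deposited table. Over all genes 21.0% of 17475 were called, 10.3% higher and 10.7% lower. Of the other 4 members, with unadjusted p below 0.05 for Acot3, Acot4 and Acot7, none reached the threshold after adjustment. Both comparisons share the reference group, so each is given by its own values. Acot1 was 7.20-fold higher in the Cpt2 group in the authors' deposited table (log2 fold change 2.85, adjusted p = 1.92e-20). Acot2 was 15.8-fold higher in the authors' deposited table (3.98, adjusted p = 3.85e-14). Scaled by the authors' fold changes from the Cpt1a knockout livers, Acot1 would hold 798 to 1429.5 counts in stretches shared with Acot2 in the Cpt2 group, where Acot2 itself would reach 2779.8.

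Among the peroxisomal members 3 were called higher in the Cpt2 group and 2 were not called. Acot6 was 3.49-fold higher in the authors' deposited table (1.80, adjusted p = 1.03e-04). Acot8 was 1.71-fold higher in the authors' deposited table (0.77, adjusted p = 3.22e-04). Acot5 was called higher (adjusted p = 0.00657 in the authors' deposited table), again with too few counts for a size. Acot3 (1.61, adjusted p = 0.109) and Acot4 (0.67, adjusted p = 0.0625) had positive log2 fold changes in the authors' deposited table, and neither passed the threshold. Acot12 was 1.40-fold higher in the authors' deposited table (0.48, adjusted p = 0.00164), while Acot13 (0.36, adjusted p = 0.341) and Acot7 (−0.47, adjusted p = 0.0523) were not called.

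**Figure D3:**
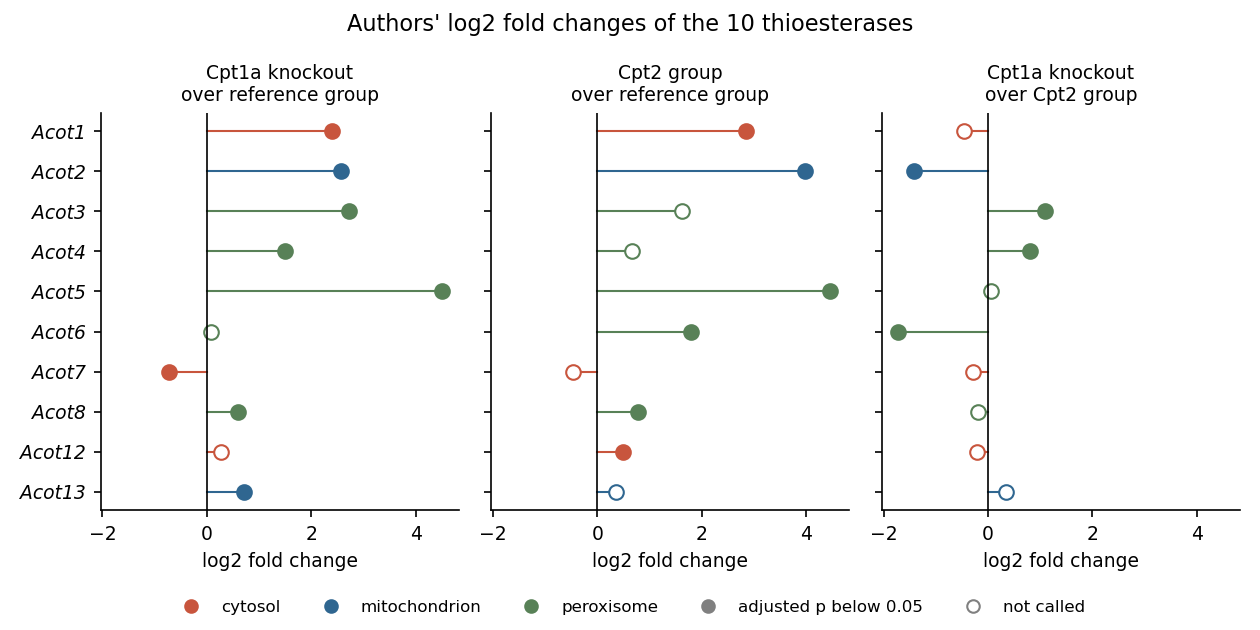
Authors' log2 fold change of each member in the 3 comparisons, coloured by the compartment the enzyme is known from. Filled circles are called at an adjusted p below 0.05 and open circles are not. For Acot6 and Acot12 the value over the reference group in the Cpt1a knockout is the sum of the other tables, and Acot5 rests on a mean of 7.5 counts. Acot2 and Acot6 lie left of 0 and Acot3 and Acot4 right of it when the Cpt1a knockout is set against the Cpt2 group.

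The direct comparison of the Cpt1a knockout with the Cpt2 group tested whether the members differ between these groups. Of the type I genes 4 did, in both directions, and no type II gene was called. The authors' deposited table called Acot3 and Acot4 higher and Acot2 and Acot6 lower in the Cpt1a knockout. Over all genes 28.8% of 17755 were called, 14.2% higher and 14.6% lower, so 4 of 10 members is not far above that background. Acot3 was 2.14-fold higher in the authors' deposited table (log2 fold change 1.10, adjusted p = 0.00260). Acot4 was 1.75-fold higher in the authors' deposited table (0.81, adjusted p = 0.00207). These peroxisomal genes, next to each other in the cluster, were thus both higher. Of the peroxisomal genes that follow them in the cluster, Acot5 was not called and Acot6 was called lower.

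The mitochondrial copy went the other way. Acot2 was lower in the Cpt1a knockout, 2.66-fold in the authors' deposited table (−1.41, adjusted p = 2.24e-08). Its gap of 1736 counts, from the livers' mean and that fold change, compares with a gap of 216 to 386 counts in Acot1 reads from shared stretches under even coverage. Acot6 too was lower there, 3.30-fold in the authors' deposited table (−1.72, adjusted p = 6.89e-05). Acot1 was not called in the authors' deposited table (−0.45, adjusted p = 0.158), nor was Acot13 (0.34, adjusted p = 0.113). In the authors' deposited table Acot7 was at −0.28, Acot8 at −0.19, Acot12 at −0.22 and Acot5 at 0.05 on the log2 scale, and none was called.

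Markers of other cells were called in the same comparison too. Of all genes 14.2% were called higher and 14.6% lower there. All 6 Kupffer cell and macrophage markers and all 3 red blood cell markers were called higher in the Cpt1a knockout than in the Cpt2 group in the authors' deposited table, with medians of 1.06 and 1.04. So were 2 of 5 endothelial and 2 of 5 lymphocyte markers, with medians of 0.27 and 1.02. Of the 5 stellate markers 1 was called higher and 1 lower, with a median of −0.20. Of the 4 bile duct markers 1 was called higher, with a median of −0.34. Among the markers at low levels in the livers, 1 of 3 neuron markers was called higher and 1 of 4 adipocyte markers lower. Of the 6 hepatocyte markers 1 was called higher and 1 lower, near the shares of all genes. The shares of all genes called against the reference group were 6.81% higher and 7.60% lower in the Cpt1a knockout. In the Cpt2 group they were 10.3% higher and 10.7% lower. Hepatocyte markers were called lower against the reference group in 3 of 6 in the Cpt1a knockout and 4 of 6 in the Cpt2 group. Of the 6 Kupffer cell markers, 2 were called higher in the Cpt1a knockout and 2 lower in the Cpt2 group, per the authors' deposited tables. The 3 red blood cell markers were all called lower in the Cpt2 group and none was called in the Cpt1a knockout, again against the reference group in the authors' deposited tables. Of the lymphocyte and of the stellate markers 1 of 5 each was called higher in the Cpt1a knockout against the reference group. The part of these shifts in the members' values was not tested. In the Cpt1a knockout livers the 5 endothelial markers summed to 41.5 to 47.2 FPKM, the 5 stellate markers to 31.5 to 38.3, the 5 lymphocyte markers to 2.41 to 3.19, the 4 bile duct markers to 1.01 to 2.10, the 3 neuron markers to 0.647 to 1.00 and the 4 adipocyte markers to 0.057 to 0.168. Libraries of the Cpt2 group were deposited in an earlier series, and no library of the reference group was analysed here, so in each comparison of the Cpt1a knockout a difference between batches cannot be told apart from one between genotypes.

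The make-up of the family differed between the groups. For the Cpt1a knockout each member's mean FPKM over the 4 livers was taken, and for the other groups that level was divided by the fold change of the Cpt1a knockout over that group, from the authors' deposited tables. For Acot6 and Acot12 the fold change over the reference group was not listed, so the summed log2 fold changes of the other comparisons were used. The levels of the other groups are thus implied and carry no error. Type I genes made up 62.4% of the family's summed FPKM in the Cpt1a knockout, 66.5% in the Cpt2 group and 31.4% in the reference group. Acot1 alone was 35.7% in the Cpt1a knockout, 42.6% in the Cpt2 group and 16.1% in the reference group, where Acot12 led with 37.6%. Acot12 was 19.0% in the Cpt1a knockout and 19.2% in the Cpt2 group. Peroxisomal members made up 23.7% in the Cpt1a knockout, 12.7% in the Cpt2 group and 18.1% in the reference group. Acot2 was 6.30% in the Cpt1a knockout, 14.6% in the Cpt2 group and 2.52% in the reference group. The whole family summed to 490 FPKM in the Cpt1a knockout, to an implied 564 FPKM in the Cpt2 group and to an implied 205 FPKM in the reference group. Type I genes alone summed to 4.74 times their implied reference sum in the Cpt1a knockout and 5.82 times in the Cpt2 group, against 1.31 and 1.34 times for type II genes in the same order of groups.

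**Figure D4:**
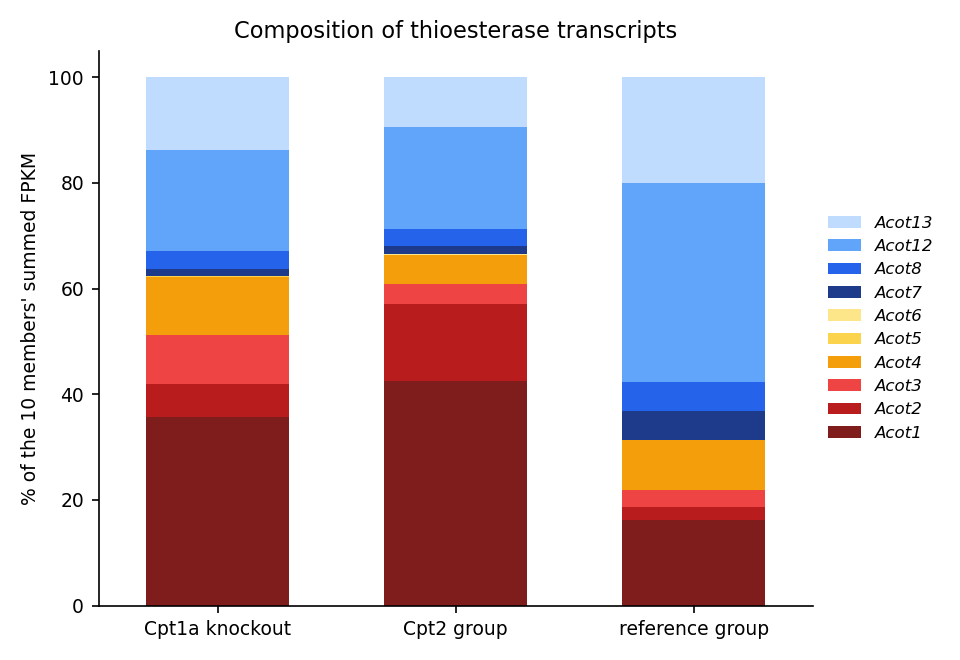
Each member's share, in percent, of the 10 members' summed FPKM. The Cpt1a knockout bar is the mean of 4 livers, and the bars of the Cpt2 group and the reference group are that mean divided by the authors' fold changes, with type I genes in warm and type II genes in blue colours. For Acot6 and Acot12 in the reference bar the log2 fold change is the sum of the other comparisons. Type I genes fill 62.4% of the Cpt1a knockout bar, 66.5% of the Cpt2 group bar and 31.4% of the reference bar.

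Genes that act around the thioesterases were counted list by list, and beside these counts stand the shares of all genes called, 6.81% higher and 7.60% lower in the Cpt1a knockout and 10.3% higher and 10.7% lower in the Cpt2 group, each against the reference group in the authors' deposited tables. Among 12 other thioesterases and acyltransferases, 0 were called higher and 1 lower in the Cpt1a knockout against the reference group, and 1 higher and 5 lower in the Cpt2 group against it. Acot11, a thioesterase first described in brown fat, was the member called lower in the Cpt1a knockout (log2 fold change −1.75 in the authors' deposited table, adjusted p = 8.28e-05). Ppt2, a lysosomal thioesterase, missed the threshold there (−0.53 in the authors' deposited table, adjusted p = 0.0709). Them5, a mitochondrial one with a mean of 0.5 counts in the livers, missed it too (adjusted p = 0.0734 in the authors' deposited table). Acot11 was also lower in the Cpt2 group (−2.06 in the authors' deposited table, adjusted p = 3.52e-07). There Acot9, a mitochondrial thioesterase, was higher (2.39 in the authors' deposited table, adjusted p = 9.01e-14), and Acnat2, a peroxisomal acyltransferase of the type I family, was lower (−1.25, adjusted p = 7.33e-05).

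Acyl-CoA synthetases, which run the opposite reaction, were called higher in 0 and lower in 5 of 20 in the Cpt1a knockout against the reference group, and higher in 4 and lower in 4 in the Cpt2 group. Slc27a5, the bile acid and very long-chain acyl-CoA synthetase, was lower in both, at −1.20 in the Cpt1a knockout (adjusted p = 2.65e-07) and −1.32 in the Cpt2 group (adjusted p = 3.77e-18) in the authors' deposited tables. Acss2, the cytosolic acetyl-CoA synthetase (−0.85, adjusted p = 8.23e-05), and Acsm1, a medium-chain synthetase (−0.76, adjusted p = 9.68e-05), were lower in the Cpt1a knockout in the authors' deposited table. Acsf3, the malonyl-CoA synthetase (1.10, adjusted p = 5.07e-10), and Slc27a4, a fatty acid transporter with synthetase activity (1.39, adjusted p = 1.45e-09), were higher in the Cpt2 group in the authors' deposited table.

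Acyl-CoA binding proteins were called higher in 3 and lower in 0 of 8 in the Cpt1a knockout, with the same counts in the Cpt2 group. Dbi, the acyl-CoA binding protein itself, was 3.07-fold higher in the Cpt1a knockout in the authors' deposited table (1.62, adjusted p = 1.29e-11), and 1.72-fold higher in the Cpt2 group (0.78, adjusted p = 0.0354). Fabp1, the liver fatty acid binding protein, was at 1.67 in the Cpt1a knockout (adjusted p = 0.0415) and 1.31 in the Cpt2 group (adjusted p = 0.00199) in the authors' deposited tables. Acbd4 was higher in the Cpt1a knockout (0.57, adjusted p = 0.0387) and Acbd3 in the Cpt2 group (0.49, adjusted p = 0.00661) in the authors' deposited tables. The 3 coenzyme A diphosphatases gave no call in the Cpt1a knockout against the reference group and 1 lower in the Cpt2 group, which was Nudt19, a peroxisomal enzyme (−0.59 in the authors' deposited table, adjusted p = 0.0292). Nudt7, also peroxisomal, and Nudt8, a mitochondrial one, were not called there. The value of Nudt7 was 0.01 on the log2 scale in the authors' deposited table, and Nudt8 had a mean of 2 counts in the livers, too few for one.

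Of 12 genes for synthesis, salvage and transport of coenzyme A, 1 was called higher and 1 lower in the Cpt1a knockout, and 2 higher and 0 lower in the Cpt2 group, each against the reference group. Ppcs, an enzyme early in coenzyme A synthesis, was higher in both, at 0.58 in the Cpt1a knockout (adjusted p = 0.00690) and 1.12 in the Cpt2 group (adjusted p = 2.28e-13) in the authors' deposited tables. Coasy, the synthase of the last steps, was lower in the Cpt1a knockout (−0.41 in the authors' deposited table, adjusted p = 0.0414). Pank3, a pantothenate kinase, was not called in the Cpt2 group (−0.48 in the authors' deposited table, adjusted p = 0.0570). Vnn1, the pantetheinase of coenzyme A breakdown, was at 2.47 in the Cpt1a knockout (adjusted p = 0.0529) and 2.44 in the Cpt2 group (adjusted p = 0.0447) in the authors' deposited tables.

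PPARA, its partners and well known targets outside the family, a list of 15, gave 3 called higher and 3 lower in the Cpt1a knockout and 8 higher and 0 lower in the Cpt2 group, each against the reference group. In the direct comparison 0 were higher and 10 lower in the Cpt1a knockout, with a median log2 fold change of −0.58. The shares of all genes there were 14.2% higher and 14.6% lower. Ehhadh, of peroxisomal beta-oxidation, was at 2.25 in the Cpt1a knockout (adjusted p = 1.33e-17) and 3.28 in the Cpt2 group (adjusted p = 3.4e-54) in the authors' deposited tables. Cd36, a fatty acid uptake protein, was at 2.71 in the Cpt1a knockout (adjusted p = 7.75e-14) and 3.39 in the Cpt2 group (adjusted p = 1.41e-29) in the authors' deposited tables. Angptl4, a secreted inhibitor of lipoprotein lipase, was lower in the Cpt1a knockout (−0.98, adjusted p = 2.93e-04), and Plin2, a lipid droplet coat protein, was higher in the Cpt2 group (2.59, adjusted p = 1.78e-31) in the authors' deposited tables. Acot3 and Acot4, which were higher in the Cpt1a knockout than in the Cpt2 group, thus ran opposite to the 10 list genes called there, while Acot2 and Acot6 ran the same way.

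Around the cluster, 42 genes lie within 500 kb on either side, of which 22 had a mean count of at least 10. In the Cpt2 group against the reference group, and in the direct comparison, 26 of the 42 had an adjusted p. For the Cpt1a knockout against the reference group that number is not known. The same shares of all genes stand beside these counts, but they are over genes with an adjusted p. In the direct comparison those shares were 14.2% higher and 14.6% lower. Against the reference group 1 was called higher and 6 lower in the Cpt1a knockout, and 3 higher and 4 lower in the Cpt2 group, and in the direct comparison 0 were higher and 6 lower. The 1 neighbour called higher in the Cpt1a knockout was the overlapping 4732463B04Rik. Dcaf4 (−1.68, adjusted p = 8.89e-05) and the cobalamin transporter Abcd4 (−1.09, adjusted p = 0.00239) were lower in the Cpt1a knockout in the authors' deposited table. In the Cpt2 group Entpd5 (1.48, adjusted p = 2.27e-12) and Papln (1.84, adjusted p = 1.83e-06) were higher and Zfyve1 (−0.89, adjusted p = 2.97e-05) was lower in the authors' deposited table.

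The genes nearest to Acot1 by their log2 fold changes in both comparisons with the reference group were sought among 2937 protein-coding genes with a mean FPKM of at least 1 that both tables list, which leaves out genes with an unadjusted p above 0.05 in the Cpt1a knockout, as a Euclidean distance over those comparisons. They were Serpina7, the thyroxine-binding globulin (2.30 in the Cpt1a knockout, 2.62 in the Cpt2 group, distance 0.25), E2f8, a cell cycle transcription factor (2.10 and 2.73 in that order, distance 0.33), and Vnn1 (distance 0.41), with values from the authors' deposited tables, which share the reference group.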

How the data were processed

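RNA-seq of 4 Cpt1a knockout livers was analysed. The submitters' processing notes name HISAT2 and the mouse build GRCm38 (mm10), and the labels' protocols name Novogene as the maker of the libraries. How reads were counted, on which annotation and with or without strand, was not given in the sources used here. Raw counts per gene, with the authors' gene lengths, come from the deposited gene table. FPKM values, as deposited, were scaled by the authors for gene length and library size. The log2 fold changes are the authors' own, as deposited for 3 comparisons. The p-values and adjusted p-values are likewise the authors', as deposited, with no test named for them. For the Cpt1a knockout over the reference group the table is partial, with no gene above an unadjusted p of 0.05, and its adjusted values imply an adjustment over 16862 genes. A further 8 per-sample columns match no sample here and were not used.

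The members and the gene lists were chosen with earlier results of these data known. Of each list the genes with the smallest adjusted p per comparison were named, except 1 that is not reported here. With 1 group of libraries no test between groups could be fitted, so a gene was called at the authors' adjusted p below 0.05, and p-values then rest on libraries that may be technical replicates. Values that the partial table lacks were the sum of the log2 fold changes of the other tables, which came within 0.1 of the listed value for 99.9% of 4424 genes. Levels of the other groups were implied from the livers and those fold changes. Spread was the SD of log2(FPKM + 1). Shared windows were exact matches of 150 bases among GENCODE transcripts on both strands. Coding and promoter sequences were aligned pairwise with Biopython 1.88. Promoter windows came from RefSeq. Python 3.11.15, pandas 2.3.3 and numpy 2.4.6 were used, and edgeR 4.0.16 in R 4.3.3 for library sizes by TMM, checked on simulated data. Totals of 13138884 to 14116441 counts limit precision for Acot5 and Acot6.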

Additional observations from a re-analysis of the deposited data

Results flagged for a closer look

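The authors' direct comparison of the Cpt1a knockout with the Cpt2 group tests the difference between these groups itself, and the genes called in it at an adjusted p below 0.05 are given as log2 fold changes of the Cpt1a knockout over the Cpt2 group, all from the authors' deposited table. Among the members these were Acot2 at −1.41 and Acot6 at −1.72, lower in the Cpt1a knockout, and Acot3 at 1.10 and Acot4 at 0.81, higher there. With 28.8% of all genes called, a difference in this comparison was common.

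Among the named genes of the lists, those higher in the Cpt1a knockout in the authors' deposited table were Acnat2 at 1.60, Acbd4 at 0.99, Pank3 at 0.74, Them4 at 0.51 and Slc25a16 at 0.50. Synthetases and binding proteins lower there in the authors' deposited table were Slc27a4 at −1.69, Acsf3 at −1.10, Acbd3 at −0.81, Slc27a1 at −0.77 and Scp2 at −0.56. The mitochondrial thioesterase Acot9 was at −1.73 and Ppcs of coenzyme A synthesis at −0.54 in the authors' deposited table. Of the PPARA list, Pdk4, which slows glucose oxidation, was at −3.21, Plin2 at −2.09 and the secreted hormone Fgf21 at −1.58 in the authors' deposited table. Neighbours of the cluster were lower as well in the authors' deposited table, with Papln at −1.18 and Entpd5 at −1.02. No member had a liver that stood apart from the other 3 by Dixon's test at its 95% critical value.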

How the results depend on the processing

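In the Cpt1a knockout against the reference group, 8 members were called, and 5 at an adjusted p below 0.01 (Acot1, Acot2, Acot3, Acot4 and Acot7) or when a log2 fold change of 1 or more in size was asked for too (Acot1 to Acot5). That size left 4 of 6 calls in the Cpt2 group against the reference group, without Acot8 and Acot12, and 3 of 4 between the Cpt1a knockout and the Cpt2 group, without Acot4. The family's sum of 490 FPKM became 1280.4 when FPKM was rescaled to the same sum in every liver (TPM) and 646 with the length of the principal transcript. The cluster's share, 61.9% as the mean over livers, became 75.5% in raw counts and 67.1% with the principal transcript length, an alternative chosen after seeing the data. Windows of all 10 members found in another gene went up to 7.23% at 100 bases, 11.96% at 50 bases and 6.61% with 2 mismatches allowed, against 4.89%. Leaving out each liver in turn gave 468 to 516 FPKM for the family, 60.6 to 63.6% for the cluster and a median SD of 0.20 to 0.28. Acot7 in the Cpt2 group passed the threshold (adjusted p = 0.0454, against 0.0523 in the authors' deposited table) when the adjustment was redone over genes whose mean count reached 10, and Acot5, with too few counts, dropped out. Taking off the median of all genes turned no direction. The adjustment could not be redone for the partial table. The cluster was also read as a mean of its members' log2 fold changes, weighted by their mean FPKM in the Cpt1a knockout livers. That mean was 2.31 in the Cpt1a knockout and 2.40 in the Cpt2 group, each over the reference group. It was −0.10 for the Cpt1a knockout over the Cpt2 group. By summed FPKM, the ratio of the Cpt1a knockout to the implied Cpt2 group was 0.815 for the cluster. Acot5 and Acot6 are limited by depth, and Acot2 by shared reads. No paired analysis was possible because the series holds 1 group.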
